A study of Sus scrofa with 6 samples.

Results

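TGF-β ligands leave the cell in a latent form, and the genes described here encode the 3 ligands (TGFB1, TGFB2 and TGFB3), the 4 latent TGF-β binding proteins (LTBP1, LTBP2, LTBP3 and LTBP4), the co-receptor TGFBR3, the activin subunit INHBA and the activin antagonist FST. They were taken by gene symbol from the 22164 genes of the mRNA table, and all 10 were found. The symbol INHBA stood on 2 rows, of which the row with the higher mean was kept. Porcine preadipocytes from subcutaneous adipose tissue of 5-day-old Junmu No. 1 white pigs received either 10 ng/mL of human TGF-β1, a recombinant protein, or, in the negative control (NC), citric acid at 10 mM, and were harvested after 48 h. Each group had 3 samples, described as biological replicates in the study's methods, and the number of animals behind them was not given in the sources used here. Neither was it stated whether the TGF-β1 samples also received citric acid. The added ligand was a protein, so the TGFB1 values below are those of the cells' own RNA. Expression was given as FPKM, which divides a gene's fragments by gene length and library size, so levels of different genes are compared per length.

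In human and mouse cells, a TGF-β ligand is made as a precursor whose propeptide stays wrapped around the growth factor after cleavage. Most LTBPs bind this propeptide through disulfide bonds and anchor the latent complex to fibrillin and fibronectin in the matrix, from which integrins and proteases release it. TGFBR3, also named betaglycan, presents ligands to the signalling receptors, with TGF-β2 depending on it most. Activin A, a dimer of the INHBA product, signals through related receptors and the same Smads, and follistatin, the product of FST, binds and neutralizes it. In adipose tissue both TGF-β and activin A are known to hold back the differentiation of preadipocytes.

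The summed FPKM of a sample was 418531 to 448468 in NC and 392976 to 404489 with TGF-β1. Sequencing depth relative to NC replicate 1 was estimated from low FPKM values, with 20 to 25 genes at the ratio used. It was 0.881 and 0.778 in NC replicates 2 and 3 and 0.740, 0.798 and 0.842 in TGF-β1 replicates 1, 2 and 3. The paper instead gives more raw reads for the TGF-β1 than for the control libraries, so the estimate is uncertain. Mesenchymal markers were abundant, with all 10 measured markers averaging 1 or more and VIM at 3609 to 5594. Of 8 adipocyte markers 6 were found, and they summed to 22.3 to 32.0 in NC and 16.5 to 20.5 with TGF-β1. ADIPOQ (0.0512 to 0.812), PLIN1 (0.021 to 0.377), CIDEC (0.164 to 0.665) and LEP (0.043 to 0.130) stayed under 1, while CEBPA, an adipogenic transcription factor, was at 12.4 to 25.2. PPARG, which encodes the receptor that directs adipogenesis, had 4.96 to 5.64 in NC and 2.98 to 3.37 with TGF-β1, without overlap (log2 fold change -0.67; limma, adjusted p = 0.225). Macrophage markers were also present. Their summed FPKM over 11 measured markers of 12 was 170, 475 and 620 in NC replicates 1, 2 and 3 and 102, 279 and 413 in TGF-β1 replicates 1, 2 and 3, and none of the 11 was listed at 0 in all samples. In bulk RNA, fewer cells of a type and less RNA per cell cannot be told apart. Epithelial markers summed to 0.0962 to 0.433 in NC and 4.19 to 5.15 with TGF-β1 over 8 markers, and endothelial markers to 9.73 to 17.1 and 8.84 to 12.7 over 6. Of these endothelial markers only PECAM1 (4.22 to 12.9) and CLDN5 (2.90 to 4.54) averaged 1 or more. KDR, TEK, EMCN and VWF averaged 0.0217 to 0.236, and CDH5 was not found. PECAM1 rose with the replicate number in both groups, as did the macrophage sum. KRT5 was at 0 in every NC sample and at 1.95 to 2.29 with TGF-β1 (limma, adjusted p = 0.00029). KRT8 had at most 0.015 in NC and 0.221 to 0.353 with TGF-β1 (limma, adjusted p = 0.073). Both exceeded an FPKM of 0.1 in the TGF-β1 samples only. The other 3 epithelial markers tested did not pass. Of these, KRT14 had 0 to 0.200 in NC and 0.869 to 2.28 with TGF-β1, without overlap (limma, adjusted p = 0.322). EPCAM had 0 to 0.038 and 0.102 to 0.375, also without overlap (limma, adjusted p = 0.393), and exceeded 0.1 in the TGF-β1 samples only. KRT19 overlapped between the groups. KRT18, CDH1 and CLDN4 averaged under 0.1. Of the 6 muscle markers 2 were found, and DES, the muscle intermediate filament desmin, was at 269 to 425 in NC and at 432 to 583 in the TGF-β1 group. The other, MYH11, which encodes smooth muscle myosin, overlapped between the groups, with 3.32 to 7.52 in NC and 3.60 to 6.03 with TGF-β1. The part of these lists in the values below was not tested.

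None of the 10 genes passed the test between TGF-β1 and NC. TGFB1, the ligand that was added as protein, had a lower RNA level in every TGF-β1 sample than in any NC sample. LTBP1, the second most abundant of the 10, had a higher level in every TGF-β1 sample than in any NC sample. LTBP2, the most abundant, had nearly the same level in all 6 samples, and TGFB3 and INHBA had the widest spread over the 6 samples, 4.13-fold and 3.52-fold. The test was limma on log2(FPKM + 0.1) over all genes that exceeded an FPKM of 0.1 in 3 or more of the 6 samples, with Benjamini-Hochberg adjustment and the study's threshold of 0.1. All 10 genes passed this filter. In it, 0 of the 10 genes had an adjusted p under 0.1, and 0.096% of the 17708 tested genes did (17 genes). At an unadjusted p under 0.05 the count was 1 of 10, TGFB1, beside 9.98% of all tested genes. With median-ratio scaling and at the same total FPKM it was LTBP1 in place of TGFB1. Groups that did not overlap were found in 1 gene with a higher level, LTBP1, beside 3.83% of all tested genes, and in 1 gene with a lower level, TGFB1, beside 14.3%. The log2 fold change was above 0 in 3 of the 10 genes and below 0 in 7. Its median was -0.16, and over all tested genes it was -0.099, so single values are to be read against that shift.

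**Figure D1:**
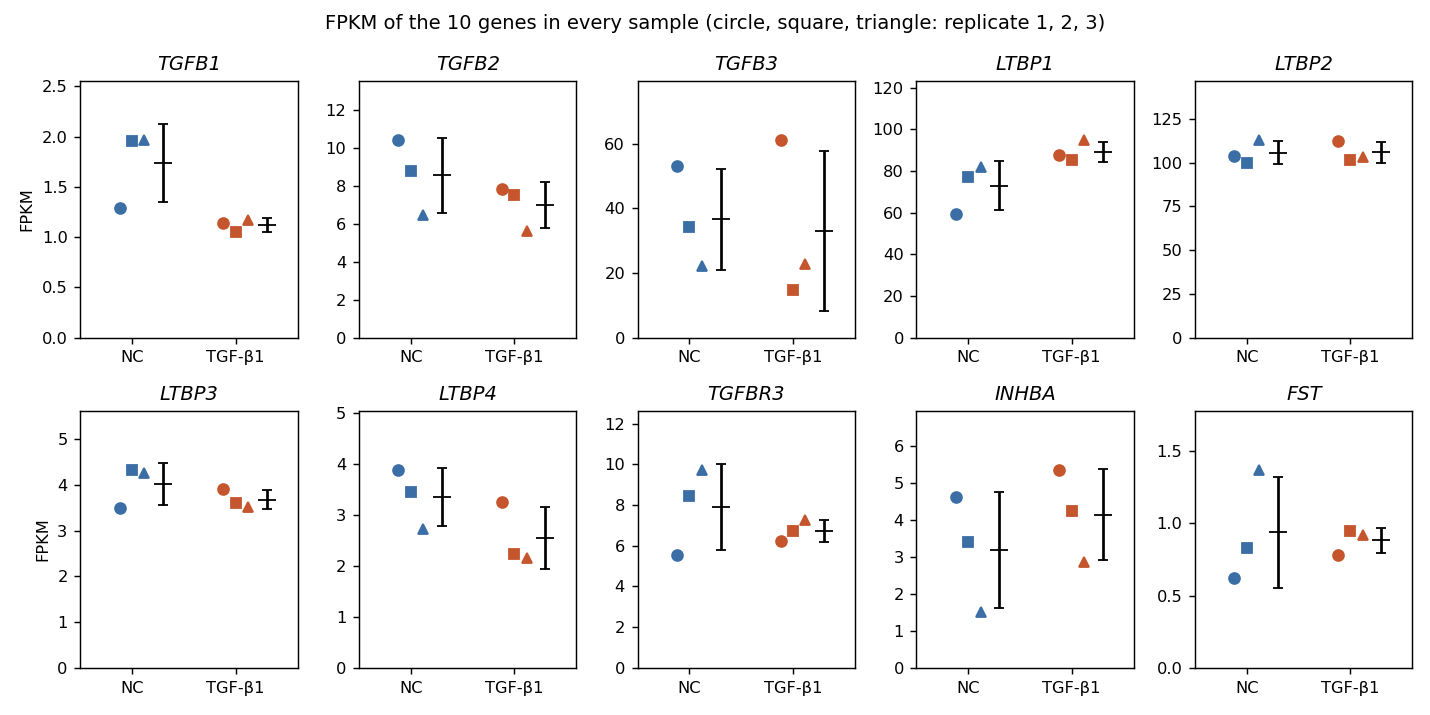
FPKM (vertical axes, each from 0) of the 10 genes in 3 NC samples (blue) and 3 TGF-β1 samples (orange), with replicates 1, 2 and 3 as circle, square and triangle and the mean ± SD in black. The groups are apart in TGFB1 (1.29 to 1.96 in NC and 1.05 to 1.17 with TGF-β1) and in LTBP1 (59.5 to 81.8 and 85.3 to 94.7), and they overlap in the other 8 genes.

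Among the ligands, TGFB3 was the most abundant and TGFB1 the least in every sample. TGFB1 encodes the ligand most widely studied in fibrosis and in immune regulation. Its FPKM was 1.29, 1.96 and 1.96 in NC and 1.14, 1.05 and 1.17 with TGF-β1. The groups did not overlap, but NC replicate 1 lay close to the TGF-β1 samples. TGFB1 averaged 1.74 ± 0.389 in NC against 1.12 ± 0.0659 in the TGF-β1 group (SD, n = 3 per group). The log2 fold change was -0.57, with a standard error of 0.19 and a 95% interval of -1.03 to -0.10 (limma, adjusted p = 0.455). The interval covers ratios of 0.489 to 0.932. When every sample was scaled to the same total FPKM, the groups overlapped, with 1.20 as the lowest NC value and 1.25 as the highest TGF-β1 value, and the log2 fold change was -0.45. Macrophages are known to express TGFB1, and NC replicate 1, the lowest NC sample, also had the lowest macrophage sum of the NC samples. In the TGF-β1 group this did not hold, since replicate 1, with the lowest sum (102), had a TGFB1 level of 1.14 and replicate 2 (279) one of 1.05. Without replicate 1 of both groups, the log2 fold change of TGFB1 was -0.77 (standard error 0.13; limma, adjusted p = 0.423). The part of the macrophage markers in the TGFB1 difference was not tested.

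TGFB2, the ligand that relies on TGFBR3, had an FPKM of 10.4, 8.81 and 6.46 in NC and of 7.85, 7.55 and 5.64 with TGF-β1. The groups overlapped, with NC replicate 1 above all other samples and TGF-β1 replicate 3 below them. TGFB2 had a log2 fold change of -0.27, with a 95% interval of -0.84 to 0.30 (limma, adjusted p = 0.703). It was -0.12 without NC replicate 1 or without TGF-β1 replicate 3, and -0.46 without NC replicate 3. TGFB3, which in the mouse is required for fusion of the palate and is expressed in mesenchymal cells, had an FPKM of 53.2, 34.4 and 22.2 in NC and of 61.1, 14.8 and 22.9 with TGF-β1. Replicate 1 was the highest sample in both groups, and the spread among the TGF-β1 samples was 4.13-fold. The means of 36.6 ± 15.6 for NC and 32.9 ± 24.7 for TGF-β1 (SD, n = 3 per group) therefore differed by far less than the spread within either group. The 95% interval of the TGFB3 log2 fold change, -1.85 to 1.20, covers ratios from 0.278 to 2.30 (limma, adjusted p = 0.865). It thus includes changes in either direction. The TGFB3 log2 fold change ranged from -0.90 without TGF-β1 replicate 1 to 0.12 without TGF-β1 replicate 2.

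Summed over the 3 ligands, FPKM was 64.9, 45.1 and 30.6 in NC and 70.1, 23.4 and 29.7 with TGF-β1. TGFB3 held 72.5% to 82.0% of the sum in NC and 63.2% to 87.2% with TGF-β1. TGFB2 held 16.0% to 21.1% and 11.2% to 32.3%. TGFB1 held 1.98%, 4.34% and 6.41% in NC and 1.63%, 4.48% and 3.95% with TGF-β1, so its share overlapped between the groups although its level did not. The TGFB3 level was 11.3 to 41.3 times that of TGFB1 in NC and 14.1 to 53.4 times with TGF-β1. These shares describe RNA per length and carry no test.

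The latent binding proteins were dominated by LTBP2 and LTBP1. LTBP1, which binds the latent complex of each ligand and is known in other species as a carrier that stores it in the matrix, had an FPKM of 59.5, 77.2 and 81.8 in NC and of 87.5, 85.3 and 94.7 with TGF-β1. All TGF-β1 samples lay above all NC samples, by a margin of 3.47 between the nearest pair, and NC replicate 1 stood below the rest. LTBP1 averaged 72.8 ± 11.8 in NC against 89.2 ± 4.92 in the TGF-β1 group (SD, n = 3 per group). The log2 fold change was 0.30, with a standard error of 0.15 and a 95% interval of -0.071 to 0.68 (limma, adjusted p = 0.557). The groups remained apart under quantile normalization, median-ratio scaling and scaling to the same total, where the log2 fold change was 0.37, 0.40 and 0.43. Without NC replicate 1 it was 0.16 (limma, adjusted p = 0.650).

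LTBP2 is the member of the family that does not bind latent TGF-β, and it is found in elastic fibres. It had an FPKM of 104, 99.97 and 113 in NC and of 113, 102 and 103 with TGF-β1. The highest of the 6 samples was 1.13 times the lowest, the narrowest spread of the 10 genes. Its log2 fold change was 0.0035 with a 95% interval of -0.24 to 0.25 (limma, adjusted p = 0.992), which covers ratios of 0.844 to 1.19. Within each sample, LTBP1 was 0.573, 0.772 and 0.725 of the LTBP2 level in NC and 0.778, 0.839 and 0.918 with TGF-β1. This ratio is free of the scaling between samples, and its groups did not overlap, by 0.0062 between NC replicate 2 and TGF-β1 replicate 1. The ratio was formed after the values had been seen and carries no test.

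LTBP3, which also binds latent TGF-β and acts in bone and teeth, had an FPKM of 3.48, 4.31 and 4.25 in NC and of 3.91, 3.60 and 3.52 with TGF-β1. The groups overlapped through NC replicate 1, the lowest sample. The log2 fold change was -0.12 with a 95% interval of -0.42 to 0.18 (limma, adjusted p = 0.752), and it was 0.0068 after scaling to the same total, -0.22 without NC replicate 1 and -0.065 without NC replicate 2. LTBP4, an elastic fibre protein that carries latent TGF-β1, had 3.87, 3.45 and 2.73 in NC and 3.26, 2.22 and 2.16 with TGF-β1. Only TGF-β1 replicate 1 reached into the range of the NC samples. Its log2 fold change was -0.39 with a standard error of 0.21 and a 95% interval of -0.93 to 0.15 (limma, adjusted p = 0.590). With the replicate number as a block the unadjusted p of LTBP4 was 0.038 (limma, adjusted p = 0.360), but the labels do not say that the numbers pair the samples.

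Of the FPKM summed over the 4 LTBP genes, LTBP2 held 54.1% to 60.8% in NC and 50.7% to 54.3% with TGF-β1. LTBP1 held 34.9% to 41.7% and 42.2% to 46.5%, without overlap. LTBP3 held 2.04% to 2.33% and 1.73% to 1.89%, also without overlap but lower with TGF-β1, and LTBP4 held 1.35% to 2.27% and 1.06% to 1.57%, with overlap. A share depends on the other genes of the sum, and the LTBP3 level itself overlapped between the groups. These shares carry no test. The LTBPs that bind latent TGF-β (LTBP1, LTBP3 and LTBP4) summed to 66.9, 84.9 and 88.8 in NC and to 94.7, 91.1 and 100.4 with TGF-β1. Set against the sum of the 3 ligands, this was 1.03 to 2.90 in NC and 1.35 to 3.90 with TGF-β1, with overlapping groups. The lowest ratio in each group came from replicate 1, the sample with the highest TGFB3. In the RefSeq table of assembly Sscrofa11.1, used here for neighbourhood only, LTBP2 lies on the chromosome of TGFB3 with 19 protein-coding genes between them, and LTBP4 on that of TGFB1 with 17 between. The levels of LTBP2 and TGFB3 did not move alike, with a spread over the 6 samples of 1.13-fold and 4.13-fold.

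**Figure D2:**
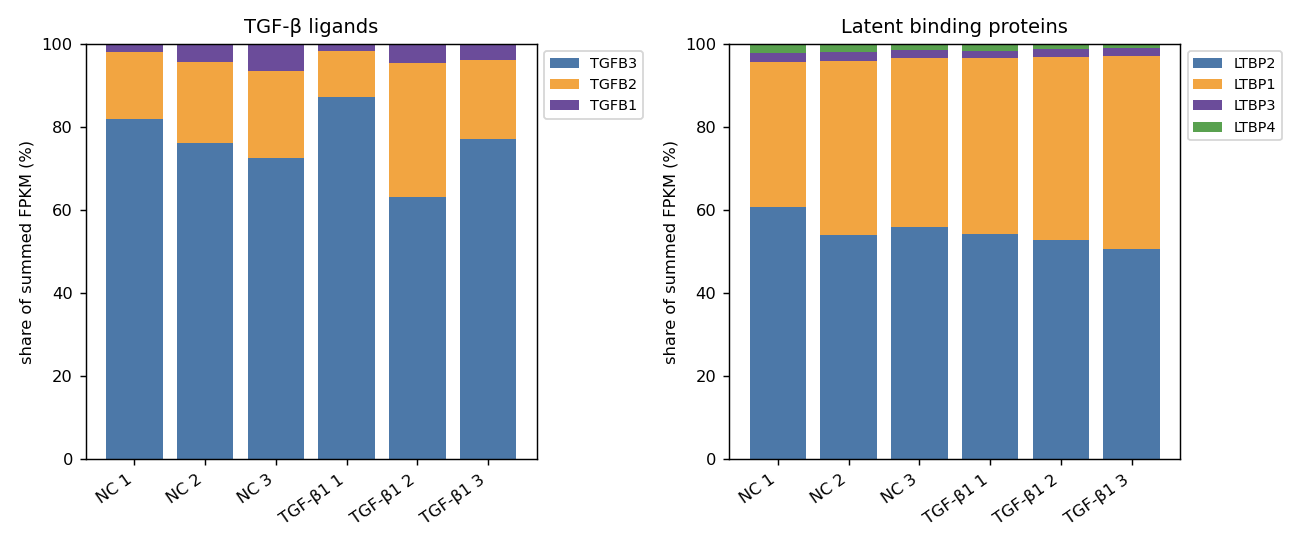
Share of the summed FPKM (vertical axis, %) held by each TGF-β ligand (left) and each LTBP gene (right) in the 6 samples. TGFB3 holds 63.2% to 87.2% of the ligand sum, and LTBP1 holds a larger share of the LTBP sum in the TGF-β1 samples (42.2% to 46.5%) than in the NC samples (34.9% to 41.7%).

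TGFBR3, the co-receptor, had an FPKM of 5.56, 8.46 and 9.70 in NC and of 6.22, 6.71 and 7.26 with TGF-β1. The TGF-β1 samples lay inside the range of the NC samples and were closer to each other, with a spread of 1.17-fold against 1.75-fold in NC. The log2 fold change was -0.19 with a 95% interval of -0.76 to 0.37 (limma, adjusted p = 0.782), and it ranged from -0.43 without NC replicate 1 to -0.030 without NC replicate 3. INHBA had an FPKM of 4.63, 3.41 and 1.52 in NC and of 5.34, 4.23 and 2.86 with TGF-β1. The groups overlapped, since NC replicate 1 exceeded 2 of the 3 TGF-β1 samples, and the NC samples alone spread 3.05-fold. The INHBA log2 fold change was 0.46 with a standard error of 0.46 and a 95% interval of -0.69 to 1.61 (limma, adjusted p = 0.747). It was 0.016 without NC replicate 3 and 0.79 without NC replicate 1. The other row with the symbol INHBA had an FPKM of at most 0.395 in any sample, and with both rows summed the log2 fold change was 0.41.

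FST had the lowest mean level of the 10 genes, with an FPKM of 0.619, 0.827 and 1.37 in NC and of 0.782, 0.946 and 0.920 with TGF-β1. NC replicate 3 stood above the others, and the TGF-β1 samples lay within the NC range. The FST log2 fold change was -0.017 with a 95% interval of -0.71 to 0.68 (limma, adjusted p = 0.986), and it turned to 0.26 without NC replicate 3 and to 0.071 to 0.097 under the 3 scalings. The level of INHBA was 7.48, 4.12 and 1.11 times that of FST in NC and 6.82, 4.47 and 3.11 times with TGF-β1. The lowest of these 6 ratios, in NC replicate 3, combined the lowest INHBA with the highest FST.

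**Figure D3:**
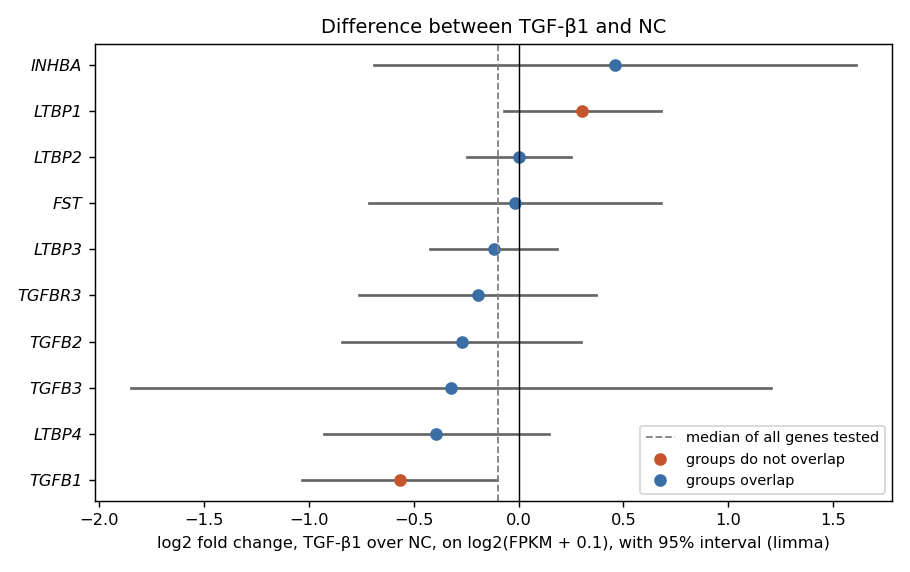
Log2 fold change of TGF-β1 over NC on log2(FPKM + 0.1) (horizontal axis) with its 95% interval from limma for the 10 genes, where orange marks genes whose groups do not overlap and the dashed line is the median of all tested genes (-0.099). The interval of TGFB1 alone lies apart from 0 (-1.03 to -0.10), and that of TGFB3 is the widest (-1.85 to 1.20).

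Ordered by mean FPKM, the NC samples gave LTBP2, LTBP1, TGFB3, TGFB2, TGFBR3, LTBP3, LTBP4, INHBA, TGFB1 and FST. With TGF-β1 the order was the same except that INHBA moved above LTBP3 and LTBP4. The ranges of LTBP2, LTBP1 and TGFB3 were apart from those of their neighbours in both groups. TGFB2 and TGFBR3 were not separated in either group, and LTBP3, LTBP4 and INHBA overlapped one after the other in NC, as did INHBA with TGFB1 and TGFB1 with FST. With TGF-β1, INHBA overlapped with both LTBP3 and LTBP4, while LTBP4, TGFB1 and FST were apart from each other. By mean FPKM over the 6 samples, LTBP2 exceeded 97.2% of the tested genes, LTBP1 96.3%, TGFB3 90.5%, TGFB1 33.4% and FST 27.0%.

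The samples of a group were ordered by their macrophage sum, and this comparison was made after the values had been seen. In both groups the sum rose from replicate 1 to 2 to 3. An order by macrophage sum therefore cannot be told apart from an order by replicate number. The sum was led by C1QC and C1QA. Of the 11 markers CD86 alone fell from replicate 1 to replicate 3 in both groups. It had 34.6, 31.5 and 24.6 in NC and 33.4, 18.1 and 19.7 with TGF-β1. INHBA, TGFB2 and LTBP4 stood in the opposite order to the macrophage sum within both groups, and TGFBR3 stood in the same order within both groups. Of the other tested genes, 9.37% had the opposite and 7.66% the same order in both groups. Over all 6 samples, INHBA was highest at the lowest macrophage sum (5.34 at 102) and lowest at the highest sum (1.52 at 620). TGFB3 was also highest in the sample with the lowest sum of each group. The sum itself overlapped between NC and TGF-β1, and the part of these markers in the levels of the 4 genes was not tested.

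**Figure D4:**
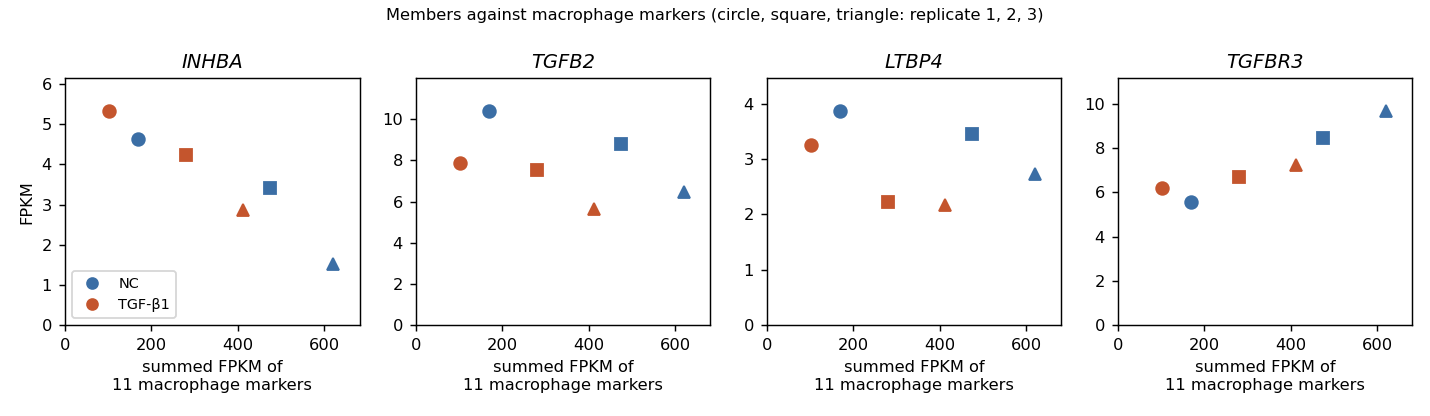
FPKM of INHBA, TGFB2, LTBP4 and TGFBR3 (vertical axes, from 0) against the summed FPKM of 11 macrophage markers (horizontal axes) in 3 NC samples (blue) and 3 TGF-β1 samples (orange). Within each colour INHBA, TGFB2 and LTBP4 are lower, and TGFBR3 is higher, in samples with a higher macrophage sum. The sum also rises with the replicate number within each colour.

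The genes nearest to 3 of the members over the 6 samples were found by the root mean square difference of centred log2 values, among genes with a symbol whose FPKM averaged 1 or more. For TGFB1 they were CCRN4L, ADAMTSL3 and VPS37D, at differences of 0.077, 0.095 and 0.10 on the log2 scale among 4774 candidates. For INHBA they were AK3L1, TRAF5 and WNT2B, at 0.078, 0.092 and 0.13 among 1574 candidates. For LTBP2, whose values were nearly flat, they were TRIM3, TRABD and PSMB4, at 0.026, 0.027 and 0.029 among 8867. WNT2B, which encodes a Wnt ligand, had an FPKM of 2.54, 1.64 and 0.726 in NC and of 3.26, 2.04 and 1.70 with TGF-β1. These genes were picked for their likeness, which therefore carries no test.

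Genes that process, release, hold or read the same ligands were described beside the members. Of 20 tested genes for the processing and activation of latent TGF-β, 0 passed, with 10 log2 fold changes above 0 and 10 below. THBS1, a matrix glycoprotein that activates latent TGF-β, had the highest level, at 1470, 1088 and 873 in NC and 1933, 1600 and 1396 with TGF-β1 (log2 fold change 0.54; limma, adjusted p = 0.522). THBS2, its relative, had 401 to 519 in NC and 444 to 564 with TGF-β1. PCSK5 and PCSK6, named after their values were seen, are proprotein convertases, the protease family that cleaves TGF-β precursors. PCSK6 had 6.91, 7.49 and 7.35 in NC and 10.6, 8.80 and 10.7 with TGF-β1 (log2 fold change 0.46; limma, adjusted p = 0.381), and PCSK5 had 4.46, 5.60 and 4.98 in NC and 7.95, 6.61 and 7.01 with TGF-β1 (log2 fold change 0.51; limma, adjusted p = 0.388). FURIN, the best known enzyme of the family, had 10.8 to 14.1 in NC and 11.7 to 14.4 with TGF-β1. In all, groups did not overlap in 3 of the 20 genes with a higher level, PCSK5, PCSK6 and TGM2, beside 3.83% of all tested genes, and in 1 with a lower level, PLAU, beside 14.3%. TGM2, a transglutaminase that links matrix proteins, had 0.431 to 0.491 in NC and 0.561 to 0.835 with TGF-β1, and PLAU, the urokinase plasminogen activator, had 101 to 110.1 and 88.5 to 97.7.

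Of 14 tested matrix partners of latent TGF-β, 0 passed, with 6 log2 fold changes above 0 and 8 below. FN1, which encodes the fibronectin on which LTBP1 is laid down, had 483, 579 and 605 in NC and 616, 713 and 783 with TGF-β1, without overlap (log2 fold change 0.34; limma, adjusted p = 0.517). Groups did not overlap in 3 of the 14 genes with a higher level, FN1, EMILIN1 and BGN, beside 3.83% of all tested genes. They did not overlap in 1 gene with a lower level, FBLN5, beside 14.3%. FMOD, a small proteoglycan that binds TGF-β, had 397 to 438 in NC and 379 to 412 with TGF-β1. Of 8 tested TGF-β and activin receptors, 0 passed, with TGFBR2 at 20.1 to 26.9 in NC and 19.4 to 20.4 with TGF-β1, and ACVRL1, a type I receptor, at 7.66 to 10.4 and 7.02 to 8.81. TGFBR2 was thus expressed above TGFBR3 in every sample. Among the 8 receptors, groups were apart with a higher level in 1, ACVR1B, beside 3.83% of all tested genes. They were apart with a lower level in 0, beside 14.3%. ACVR1B, a type I receptor, had 3.85 to 4.50 in NC and 4.62 to 5.85 with TGF-β1 (limma, adjusted p = 0.503).

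Of 5 tested activin, inhibin and related genes, 0 passed. INHBE, which encodes another activin subunit, had 10.2, 7.53 and 7.54 in NC and 14.3, 12.7 and 9.82 with TGF-β1, with groups that overlapped through NC replicate 1 (log2 fold change 0.53; limma, adjusted p = 0.479). INHBB had 5.07 to 6.60 in NC and 5.99 to 7.05 with TGF-β1. INHBE had a higher FPKM than INHBA in every sample. Of 27 tested TGF-β response genes, 0 passed, with 22 log2 fold changes above 0 and 5 below and a median of 0.17, where the median of all tested genes was -0.099. ACTA2 and TAGLN, which encode contractile proteins of smooth muscle, were the most abundant, at 3025 to 5461 and 2669 to 4039 in NC and 4117 to 5107 and 3220 to 3741 with TGF-β1. In 5 of the 27 genes, TNC, COL1A1, COL1A2, COL3A1 and PMEPA1, groups were apart with a higher level, beside 3.83% of all tested genes. In 2, TIMP3 and ID1, they were apart with a lower level, beside 14.3%. This list was chosen with earlier results of these data known, so it is not independent evidence of a direction.

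**Figure D5:**
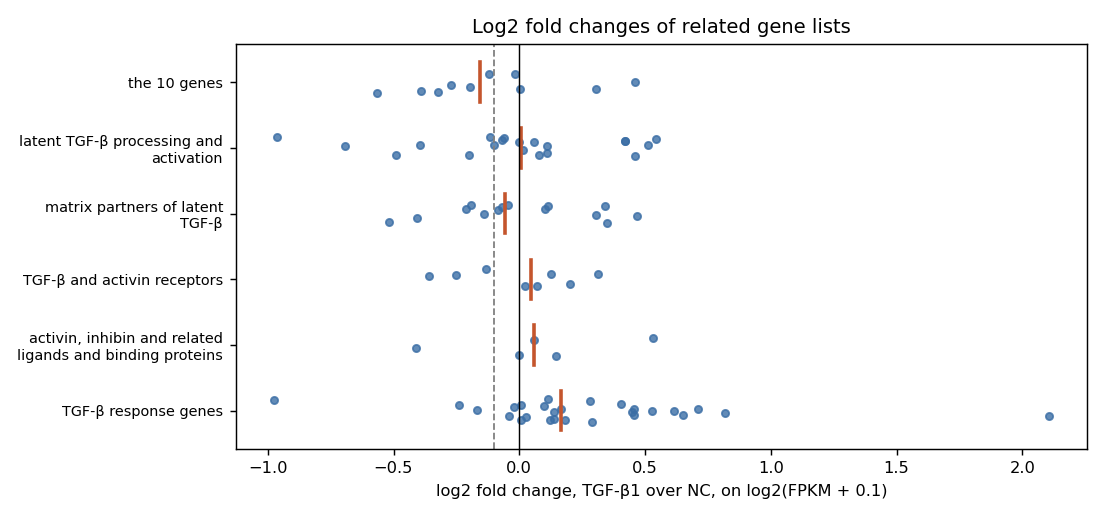
Log2 fold changes of TGF-β1 over NC on log2(FPKM + 0.1) (horizontal axis) for the 10 genes and 5 related lists, where each point is a tested gene, orange bars are medians and the dashed line is the median of all tested genes (-0.099). The median is -0.16 for the 10 genes and 0.17 for the TGF-β response genes, and no gene shown passed the test.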

How the data were processed

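RNA of 3 NC and 3 TGF-β1 samples was sequenced after removal of ribosomal RNA. Per the labels and the paper's methods, the authors filtered the reads, used Sscrofa10.2 as the reference genome and obtained the deposited FPKM with StringTie 1.3.1. The name of the aligner was not given in the sources used here. Each deposited table holds 1 FPKM per gene, already scaled to depth, and no counts, so a count model was not applied. Relative depth was the commonest ratio of FPKM values under 0.5 between samples.

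Log2(FPKM + 0.1) was tested with limma 3.58.1 in R 4.3.3 (default parameters) on the 17708 of 22164 genes that passed the filter, with p-values adjusted over all of them. The script was tested on simulated data. Groups were taken from the sample titles. The genes named were the 10 members, for each related list the genes that passed and the 2 with the highest mean, and the genes nearest to TGFB1, LTBP2 and INHBA. FURIN, PCSK5, PCSK6, TGM2, PLAU, LRRC32, NRROS, SKIL, ID3 and the cell type markers named fall outside this rule and were chosen after their values were seen. So do EMILIN1, BGN, FBLN5, ACVR1B, TNC, COL1A1, COL1A2, COL3A1, PMEPA1, TIMP3 and ID1, named because their groups did not overlap. The members and lists were chosen with earlier results of these data known. TIMP3 was matched as TIMP-3, and PCSK5, THBS2, TGM2, TGFBR2, EMCN and KRT19 through LOC numbers of a RefSeq table. Alternatives covered the pseudocount, filter, scaling, fit, threshold, replicate block, rows of a symbol summed and samples left out. Leaving out replicate 1 of both groups was chosen after seeing the data. The lncRNA tables were not used here. Figures were drawn with matplotlib 3.10.9.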

Additional observations from a re-analysis of the deposited data

How the results depend on the processing

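The count of 0 of the 10 genes called was the same in all alternatives run, among them the fit with the replicate number as a block, which called 0 of the 10 and 3 of all tested genes. Same-numbered samples had deviations that correlated at 0.25, 0.0039 and 0.20, against -0.24 to 0.040 for samples of different numbers. NC replicates 1 and 3 correlated best with their own number. NC replicate 2 correlated best with another number, and the labels give no pairing, so the numbers were not taken as pairs. With the block the standard error was 0.18 instead of 0.46 for INHBA and 0.096 instead of 0.23 for TGFB2 (limma, adjusted p = 0.415 and 0.391). That of LTBP3 rose, from 0.12 to 0.14. Over all tested genes 17 were called with the main settings, fewer than the differentially expressed mRNAs counted in the paper. The count was 49 with a pseudocount of 0.01, 46 with a trended and robust fit, 31 with quantile normalization and 11 without a filter. It was 9 at an adjusted p of 0.05, 5 with a mean FPKM of at least 1, and 12 to 41 with other settings or samples left out. In limma, the member at an unadjusted p under 0.05 was TGFB1 with the main settings. In its place it was LTBP1 with median-ratio scaling (0.048, TGFB1 0.052) and at the same total (0.046, TGFB1 0.072). Without TGF-β1 replicate 1 it was LTBP4 (0.029, TGFB1 0.057). TGFB1 and TGFBR3 were under it without NC replicate 1 (0.0015 and 0.027), TGFB1 and LTBP4 with the block (0.043 and 0.038), and 0 genes when replicate 2 or replicate 3 of either group was left out. Its log2 fold change stayed negative in all settings, at -0.77 to -0.47 with samples left out and -0.60 to -0.36 otherwise (limma, adjusted p = 0.317 to 0.811 and 0.348 to 0.630). LTBP1 stayed positive, at 0.16 to 0.39 and 0.30 to 0.43. The signs of 4 genes turned, none with a call. With 1 sample left out LTBP2 had -0.042 to 0.052, and -0.052 without replicate 1 of both groups. With samples left out TGFB3 had -0.90 to 0.12 and FST -0.25 to 0.26. Scaling to the same total gave 0.0068 for LTBP3 and 0.097 for FST, and FST was 0.080 with quantile normalization and 0.071 with median-ratio scaling. The median of all genes was -0.099 as deposited and -0.0086 with quantile normalization, -0.0054 with median-ratio scaling and 0.023 at the same total. FST had a mean FPKM under 1 and was not tested where that was the filter. The number of fragments behind a value is not known, and 3 samples a group limit the precision to the intervals given.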

Other observations

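Single samples held extreme values in 2 TGF-β response genes that were looked at after their values were seen. SKIL, which encodes a Smad corepressor, had an FPKM of 0.0224, 9.51 and 8.59 in NC and of 9.55, 0.331 and 9.44 with TGF-β1, so that 1 sample in each group was near 0. ID3, an inhibitor of basic helix-loop-helix factors, had 3.34, 3.24 and 2.31 in NC and 3.92, 2.98 and 178 with TGF-β1. Of the genes that hold or release latent TGF-β, LRRC32, which tethers it to the cell surface, had 20.2, 21.2 and 23.0 in NC and 11.6, 21.2 and 9.36 with TGF-β1 (log2 fold change -0.69; limma, adjusted p = 0.537). NRROS, its relative in macrophages, had 1.18, 2.97 and 4.29 in NC and 0.518, 1.40 and 2.41 with TGF-β1. Within both groups this was the order of the macrophage sum and also of the replicate numbers.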
